A study of Mus musculus with 9 samples.

Results

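Cholesterol synthesis and lipid storage were followed through 8 genes in ovulated mouse oocytes: Hmgcs1, Idi1, Mvd, Sqle, Lss and Cyp51, which encode enzymes of the sterol pathway, and Plin2 and Plin3, which encode coat proteins of lipid droplets. They were picked by symbol, taking every probe set annotated to exactly 1 of these names. That gave 9 probe sets of the 35557 on the array, 2 of them for Idi1, and 8 genes of the 19938 that a single-symbol probe set represents. All 8 passed the filter on low signal, as did 17324 genes in all. The oocytes were C57BL/6, at metaphase II, the arrest at which an egg awaits fertilization, and were wild-type, Dgcr8 knockout or Dicer knockout, with 3 biological replicates and thus 3 arrays per genotype. Dgcr8 helps Drosha release microRNA precursors from their primary transcripts, and Dicer makes mature microRNAs and also the small interfering RNAs of the oocyte. All groups came from superovulated females, given 7.5 IU of PMSG and 7.5 IU of hCG, and were recovered from oviducts 14 to 16 h after hCG. Cumulus cells were stripped with 0.3 mg/ml hyaluronidase. The sources used here do not give the alleles, any Cre driver, the ages of the females or the oocytes pooled per array.

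Cells build cholesterol from acetyl-CoA. Hmgcs1 condenses it to HMG-CoA, which is reduced to mevalonate; Mvd makes isopentenyl diphosphate from mevalonate derivatives, and Idi1 converts that to its isomer dimethylallyl diphosphate. Sqle then oxidises squalene to its epoxide, Lss closes the epoxide to lanosterol, and Cyp51 removes a methyl group from lanosterol on the way to cholesterol. The transcription factor SREBP2, encoded by Srebf2, drives these genes when sterols are scarce, after Scap carries it to the Golgi for cleavage by proteases that include the product of Mbtps1. Mouse oocytes are known to draw cholesterol from the cumulus cells around them. Perilipins sit on lipid droplets, the stores of neutral lipid: Plin2 coats them constitutively, and Plin3 moves from the cytosol onto new ones.

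Upstream sequences were available from RefSeq (GRCm38.p6) for 7 of the 8 genes. Those of Hmgcs1, Idi1 and Plin3 are shown, as 3 of the genes that differed between genotypes below. Each is the 150 bases before the annotated start, read 5′ to 3′ along the gene, with matches on either strand in capitals, to TCACNCCAC, a sterol response element, or to the CCAAT box. The Hmgcs1 stretch is chr13:119690201-119690350 on the plus strand, the Idi1 stretch chr13:8885456-8885605 on the plus strand, and the Plin3 stretch chr17:56290512-56290661 on the minus strand.
Hmgcs1: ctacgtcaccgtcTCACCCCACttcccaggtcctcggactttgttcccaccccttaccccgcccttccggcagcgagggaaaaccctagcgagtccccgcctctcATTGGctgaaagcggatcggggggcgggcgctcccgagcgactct
Idi1: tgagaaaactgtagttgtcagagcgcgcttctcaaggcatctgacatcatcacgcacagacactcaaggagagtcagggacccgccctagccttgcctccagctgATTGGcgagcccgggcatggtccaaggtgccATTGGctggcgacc
Plin3: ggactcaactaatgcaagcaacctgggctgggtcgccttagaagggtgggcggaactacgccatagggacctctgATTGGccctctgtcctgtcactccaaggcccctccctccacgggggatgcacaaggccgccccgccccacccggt

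Over the 250 bases before the start, TCACNCCAC was found in Hmgcs1 alone of the 7 genes, at bases -137 to -129, against 346 of 32851 promoters of the same length (1.05%). Of 18 listed genes of cholesterol synthesis with a promoter here, 1, again Hmgcs1, held it. Only this exact word was searched, so a missing match does not show that a gene lacks a sterol response element. CCAAT was found in all 7 and in 15 of the 18 listed genes of cholesterol synthesis, some of which are among the 7. A word of this length is common, and 33.8% of all promoters held it. No test was made of these shares. Both Hmgcs1 and Idi1 held a match at -45 to -41, on the minus strand as ATTGG. Hmgcs1 held others at -237 to -233 and -176 to -172, and Idi1 held another at -14 to -10. A direct repeat of the kind bound by PPAR factors, AGGTCA repeated after a gap of 1 base, was in none of the 7 and in 11 of all promoters (0.0335%). These motifs share no letters with each other where they were found, and a match is only a match of letters. For Lss and Plin2 the 150 bases before the start lie partly within the gene's annotated span, so not all bases searched were upstream of that span.

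Dgcr8 fell by 3.24 ± 0.15 (log2, SE) in its own knockout, and Dicer1 fell by 0.95 ± 0.06 (log2, SE) in its own; the sources used here do not say whether their probes lie within the deletions. The oocyte markers Gdf9, Ooep and Bmp15 had wild-type mean log2 signals of 12.42, 12.37 and 12.36, whereas Figla (6.04 to 6.53 over the 9 arrays) and Sohlh1 (5.89 to 6.21) lay nearer to the array medians. The array medians spanned 5.48 to 5.58 (log2), and wild-type arrays correlated across genes at r of 0.9947 to 0.9956 with each other, 0.9936 to 0.9950 with Dgcr8 knockout arrays and 0.9786 to 0.9840 with Dicer knockout arrays. Signals compare 1 probe set between arrays only, and the number of arrays limits the precision, with a median 95% half-width of 0.23 for a log2 change. A bulk sample cannot tell fewer cells of a type from less RNA per cell.

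Oocytes without Dicer had more transcript of both perilipins and less of Idi1 than wild-type oocytes, while none of the 8 genes passed the test in oocytes without Dgcr8. Plin2 was 2.54-fold and Plin3 1.68-fold as high in the Dicer knockout as in wild-type, and Idi1 was 27.0% lower. The other 5 enzymes, from the entry step of Hmgcs1 to the demethylation by Cyp51, did not pass the test against wild-type. Calls rest on limma, fitted to all 9 arrays and adjusted by Benjamini-Hochberg over all tested genes, with a threshold of 0.05. Of the 8 genes, 3 passed in Dicer knockout against wild-type, 2 of them higher and 1 lower, where 11.3% of all tested genes were called (4.87% higher and 6.47% lower). At an unadjusted p under 0.05 stood 5 of the 8, Hmgcs1 and Cyp51 being added, and 23.7% of all tested genes.

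**Figure D1:**
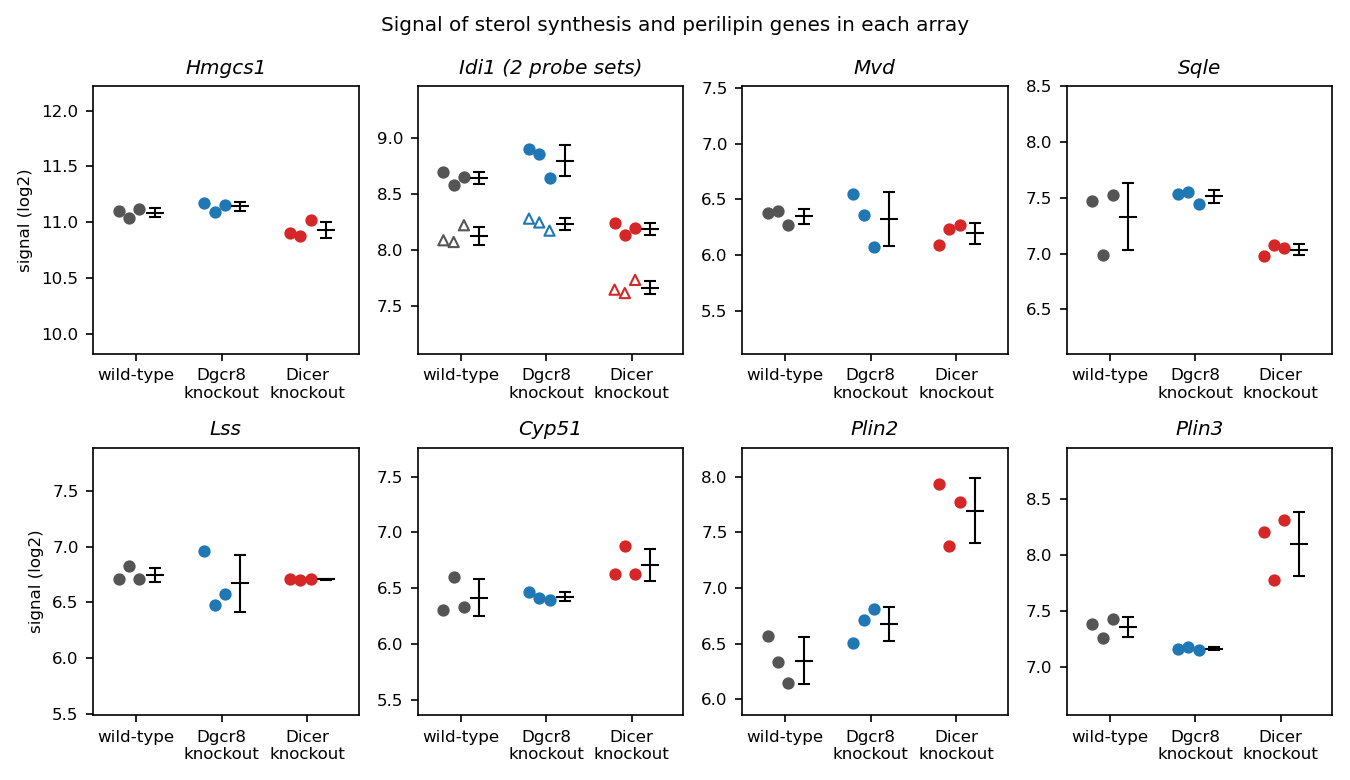
Log2 signal (vertical axis, each panel on its own range of equal height) of the 8 genes in every array, by genotype; points are arrays, the bars beside them the mean ± SD of 3 arrays, and open triangles the other Idi1 probe set. Plin2 and Plin3 lie higher and both Idi1 probe sets lower in all 3 Dicer knockout arrays than in the other 6 arrays.

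Hmgcs1 (Entrez gene 208715, chr13:119690351-119708260 in GRCm38.p6), the synthase at the pathway's entry, read 11.10, 11.04 and 11.12 (log2 signal) in the wild-type arrays, 11.17, 11.09 and 11.16 in Dgcr8 knockout and 10.90, 10.88 and 11.01 in Dicer knockout. The 3 Dicer knockout arrays were the lowest of the 9, by a narrow margin. Against wild-type the log2 change was -0.15 ± 0.05 (SE; limma adjusted p 0.0705) and did not pass; it passed when Dicer knockout replicate 3 was left out (-0.20, adjusted p 0.0247), with the floor at 6 (0.0441) and after quantile normalization (0.0203). Against Dgcr8 knockout it fell by 0.21 ± 0.05 (log2, SE; limma adjusted p 0.0172). That call was lost without Dgcr8 knockout replicate 1 (0.0678) or 3 (0.0543), without Dicer knockout replicate 1 (0.0575), with a fit of only the 2 groups (0.0514) and with plain eBayes settings (0.0692).

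Mvd (Entrez gene 192156, chr8:122433596-122443422), the decarboxylase that yields isopentenyl diphosphate, read 6.38, 6.39 and 6.27 (log2 signal) in wild-type, 6.55, 6.36 and 6.07 in Dgcr8 knockout and 6.09, 6.23 and 6.27 in Dicer knockout. All Dicer knockout values lay below the wild-type ones, the nearest pair being equal to 2 decimals, and the Dgcr8 knockout values spanned both groups. Its log2 change in Dicer knockout was -0.15 ± 0.12 (SE; 95% interval -0.42 to 0.12, limma adjusted p 0.535), and -0.13 against Dgcr8 knockout (0.587).

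Idi1 (Entrez gene 319554, chr13:8885606-8892396), the isomerase, gave the clearest fall among the enzymes. The probe set of higher mean read 8.70, 8.58 and 8.65 (log2 signal) in wild-type, 8.90, 8.86 and 8.64 in Dgcr8 knockout and 8.24, 8.13 and 8.20 in Dicer knockout. The Dicer knockout arrays were all lower than the other 6, whereas wild-type and Dgcr8 knockout overlapped. The fall was 27.0% against wild-type, a log2 change of -0.45 ± 0.09 (SE; 95% interval -0.65 to -0.26, limma adjusted p 0.00753). Against Dgcr8 knockout it was 34.5%, a log2 change of -0.61 ± 0.09 (SE; limma adjusted p 0.00140).

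The other Idi1 probe set showed the same order of groups. It read 8.09, 8.07 and 8.22 (log2 signal) in wild-type, 8.28, 8.25 and 8.17 in Dgcr8 knockout and 7.64, 7.61 and 7.73 in Dicer knockout. Tested among all 18901 probe sets above the floor, its log2 change against wild-type was -0.46 ± 0.08 (SE; limma adjusted p 0.00577). Both probe sets were hybridised with the same RNA, so they repeat the measurement and not the biology. Over the 9 arrays, the genes most like Idi1 by Pearson r of log2 signal were Det1 (0.979), Gcn1 (0.976) and Braf (0.973), a description that rests on the gap between the Dicer knockout arrays and the rest.

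Sqle (Entrez gene 20775, chr15:59315092-59331193), the squalene epoxidase, read 7.48, 6.99 and 7.53 (log2 signal) in wild-type, 7.54, 7.55 and 7.45 in Dgcr8 knockout and 6.98, 7.07 and 7.05 in Dicer knockout. Wild-type replicate 2 sat with the Dicer knockout arrays, and the other 5 arrays of the wild-type and Dgcr8 knockout groups sat well above them. The log2 change against wild-type, -0.30 ± 0.14 (SE), did not pass (limma adjusted p 0.217), but without wild-type replicate 2 it was -0.47 and passed (0.0204). Against Dgcr8 knockout the signal was 28.3% lower, a log2 change of -0.48 ± 0.14 (SE; limma adjusted p 0.0434). This call lay close to the threshold and passed in 10 of 19 alternative settings; leaving out any 1 array of either knockout ended it (0.0716 to 0.118), as did leaving out wild-type replicate 1 (0.0534).

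Lss (Entrez gene 16987, chr10:76531565-76557139), the lanosterol synthase, overlapped between all genotypes: 6.71, 6.82 and 6.71 (log2 signal) in wild-type, 6.96, 6.48 and 6.58 in Dgcr8 knockout and 6.71, 6.70 and 6.71 in Dicer knockout. The spread was widest within the Dgcr8 knockout, and 3 of the arrays share exactly the same deposited value. A value shared exactly by more than a single array occurs in 44.8% of all probe sets, and why was not tested. Among these are probe sets of genes called below, such as Vldlr, Etfdh, Elovl1 and Pdss2. The log2 change in Dicer knockout was -0.04 (95% interval -0.31 to 0.23, limma adjusted p 0.911); against Dgcr8 knockout it was 0.04 (0.909).

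Cyp51 (Entrez gene 13121, chr5:4080674-4104697), the lanosterol demethylase, had point changes opposite in sign to those of Idi1, and these did not pass the test. It read 6.30, 6.60 and 6.33 (log2 signal) in wild-type, 6.47, 6.41 and 6.39 in Dgcr8 knockout and 6.63, 6.88 and 6.63 in Dicer knockout. All 3 Dicer knockout arrays were above the other 6, the nearest being wild-type replicate 2. The log2 change against wild-type was 0.30 ± 0.11 (SE; 95% interval 0.05 to 0.54, limma adjusted p 0.122), and that against Dgcr8 knockout was 0.29 (0.122).

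The rise of the perilipins was larger than any difference among the 6 enzymes. Plin2 (Entrez gene 11520, chr4:86626910-86670217) read 6.57, 6.34 and 6.14 (log2 signal) in wild-type, 6.51, 6.71 and 6.81 in Dgcr8 knockout and 7.94, 7.37 and 7.77 in Dicer knockout. The Dicer knockout arrays stood apart from the other 6, with replicate 2 the lowest of the 3. Plin2 rose 2.54-fold against wild-type (95% interval 1.98 to 3.26), a log2 change of 1.34 ± 0.16 (SE; limma adjusted p 0.000574), and 2.03-fold against Dgcr8 knockout, a log2 change of 1.02 ± 0.16 (SE; limma adjusted p 0.00264).

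Plin3 (Entrez gene 66905, chr17:56278962-56290511) read 7.38, 7.25 and 7.42 (log2 signal) in wild-type, 7.15, 7.18 and 7.15 in Dgcr8 knockout and 8.21, 7.78 and 8.32 in Dicer knockout. Here the 3 genotypes did not overlap at all: Dgcr8 knockout lay lowest, wild-type next and Dicer knockout highest, again with Dicer knockout replicate 2 the lowest of its group. Plin3 rose 1.68-fold against wild-type (95% interval 1.37 to 2.06), a log2 change of 0.75 ± 0.13 (SE; limma adjusted p 0.00531), and 1.92-fold against Dgcr8 knockout, a log2 change of 0.94 ± 0.13 (SE; limma adjusted p 0.00137). Plin2, Plin3 and Idi1 were called in both of these comparisons under each of the 19 alternative settings.

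Markers of other cells that could carry perilipin transcript were set beside this rise. The summed signal of 23 measured cumulus and granulosa markers was 9.89 to 9.95 (log2) in wild-type, 9.90 to 10.02 in Dgcr8 knockout and 10.04 to 10.21 in Dicer knockout. Of the 21 tested, 1, Gata4, was called higher than wild-type, by 0.59 (log2). Point changes of the 21 were above 0 for 9 and below 0 for 12, and the median log2 change was -0.03, as over all genes. Beside this and the other marker lists, 4.87% of all tested genes were called higher and 6.47% lower. At an unadjusted p under 0.05 stood 23.7% of all tested genes. For 13 immune and blood markers the sums were 8.64 to 8.82, 8.73 to 8.84 and 8.83 to 9.31 in the same order, and 1 of 11 tested, the macrophage gene Cd68, was called higher, by 0.96 (log2), with a median log2 change of 0.07 and 8 point changes above 0. Lyz2, a gene of macrophages and granulocytes, read 6.13 in Dicer knockout replicate 3 and 3.68 to 4.16 in the other 8 arrays. Without that replicate the log2 changes of Plin2 and Plin3 against wild-type were 1.31 and 0.64 (limma adjusted p 0.00320 and 0.0170). The Gata4 and Cd68 calls were each lost in 1 of 19 alternatives, without wild-type replicate 3 (limma adjusted p 0.0563 and 0.0508). Both genes were also called higher against Dgcr8 knockout, Gata4 by 0.44 (log2; limma adjusted p 0.0491) and Cd68 by 0.68 (0.0465). Those calls were lost in 15 and 11 of 19 alternatives. The part of either cell type in the rise of Plin2 and Plin3 was not tested. Some defining genes lay below the signal floor, Tnfaip6 and Hsd3b1 of the cumulus and granulosa list and Adgre1 and S100a8 of the immune list. The other 21 and 11 measured members passed it. Ptgs2 had the largest log2 change of the cumulus and granulosa list against wild-type, 0.72, and was not called. It read 5.18 to 6.02 (log2 signal) in wild-type, 5.71 to 5.77 in Dgcr8 knockout and 5.65 to 6.92 in Dicer knockout. The 8 adipocyte markers measured summed to 8.57 to 8.72 in wild-type and 8.54 to 8.60 in Dicer knockout, with Adipoq and Fabp4 below the floor and 0 of 6 called by limma (0 at an unadjusted p under 0.05 as well); Plin1 and Cidec stand in both that list and the droplet list. The 17 oviduct markers measured summed to 11.85 to 11.89 in Dicer knockout, 11.96 to 12.02 in Dgcr8 knockout and 11.97 to 12.04 in wild-type. That sum mostly follows the genes of highest signal, Cdh1, Myh11 and Pecam1, with wild-type means of 10.92, 9.75 and 9.26. Of 16 tested, 1, Myh11, was called, lower by a log2 change of -0.46, and the list's median was -0.03.

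Plin2 resembled Zfp804b (Pearson r 0.991 over the 9 arrays), Myh10 (0.984) and Ccser1 (0.981) most closely of all tested genes, again through the gap between Dicer knockout and the other arrays. The 3 of them had log2 changes of 1.67, 1.52 and 0.57 in Dicer knockout against wild-type. The other perilipin genes were not called. Plin1 had a log2 change of -0.002 (95% interval -0.18 to 0.18, with 1 value shared exactly by 5 arrays), Plin4 of -0.17 (-0.47 to 0.13) and Plin5 of -0.08 (-0.34 to 0.17) in the same comparison.

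Loss of Dgcr8 was examined for the same genes. With limma 0 of 8 were called, and 0 of 8 stood at an unadjusted p under 0.05, where 0.0231% of all tested genes were called (0.0173% higher and 0.00577% lower) and 2.64% stood at that unadjusted p. The largest point change was that of Plin2, 0.33 (95% interval -0.03 to 0.69), and the next Plin3, -0.19 (-0.49 to 0.10). For the enzymes the log2 changes were 0.06 for Hmgcs1 (-0.05 to 0.16), 0.16 for Idi1 (-0.04 to 0.35), -0.02 for Mvd (-0.29 to 0.25), 0.18 for Sqle (-0.12 to 0.48), -0.08 for Lss (-0.35 to 0.20) and 0.01 for Cyp51 (-0.23 to 0.25). The intervals of Plin2 and Sqle therefore still allow rises of 0.69 and 0.48. Plin3 was the 1 gene of the 8 whose groups did not overlap, all Dgcr8 knockout arrays being lower, where 6.54% of tested genes did not overlap (3.52% with the knockout higher and 3.02% lower).

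The difference between the knockouts was tested directly, and 5 of 8 genes passed, against 13.4% of all tested genes. Plin2 and Plin3 were higher in Dicer than in Dgcr8 knockout (5.48% of genes were called higher), and Hmgcs1, Idi1 and Sqle were lower (7.92% called lower). The count was 3, namely Plin2, Plin3 and Idi1, when Dgcr8 knockout replicate 1, Dgcr8 knockout replicate 3 or Dicer knockout replicate 1 was left out. Genotypes did not overlap for 6 genes against wild-type, with Cyp51, Plin2 and Plin3 higher and Hmgcs1, Idi1 and Mvd lower, where 26.2% of all tested genes did not overlap (10.0% higher and 16.1% lower). Against Dgcr8 knockout they also did not overlap for 6, with Sqle in the place of Mvd (26.1% of all; 10.2% higher and 15.9% lower). Both comparisons use the same Dicer knockout arrays, so the calls in one are not independent of those in the other.

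**Figure D2:**
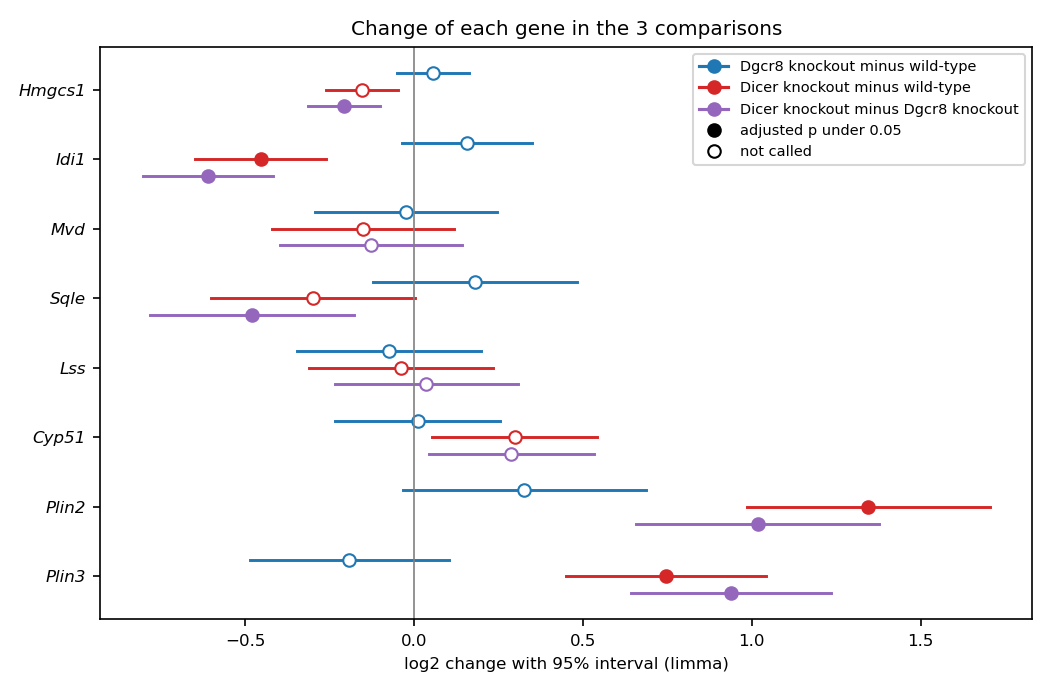
Log2 change (horizontal axis) with its 95% interval for the 8 genes in the 3 comparisons; filled points have a limma adjusted p under 0.05. All Dgcr8 knockout intervals include 0, and the filled points are the 3 genes called against wild-type and the 5 called against Dgcr8 knockout.

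The sterol pathway as a whole held calls in neither direction beyond Idi1 when Dicer knockout was set against wild-type. Of 23 genes listed for cholesterol synthesis, 19 were tested, and 1, Idi1, was called, where 11.3% of all tested genes were. At an unadjusted p under 0.05 stood 10 of the 19, 6 higher and 4 lower, against 23.7% of all tested genes. The median log2 change of the 19 was 0.11, against -0.03 over all genes, with 11 point changes above 0 and 8 below. Fdps, which makes farnesyl diphosphate, had the highest point change (0.40, limma adjusted p 0.186), and Hsd17b7, a ketosteroid reductase of the late pathway, stood at 0.27 (0.0733). Msmo1, the methylsterol oxidase, stood at -0.28 (0.136). Against Dgcr8 knockout 3 of the 19, Hmgcs1, Idi1 and Sqle, were called lower and 0 higher, where 7.92% and 5.48% of all tested genes were. These 3 are among the 8 genes followed above. Idi2 lay below the floor.

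**Figure D3:**
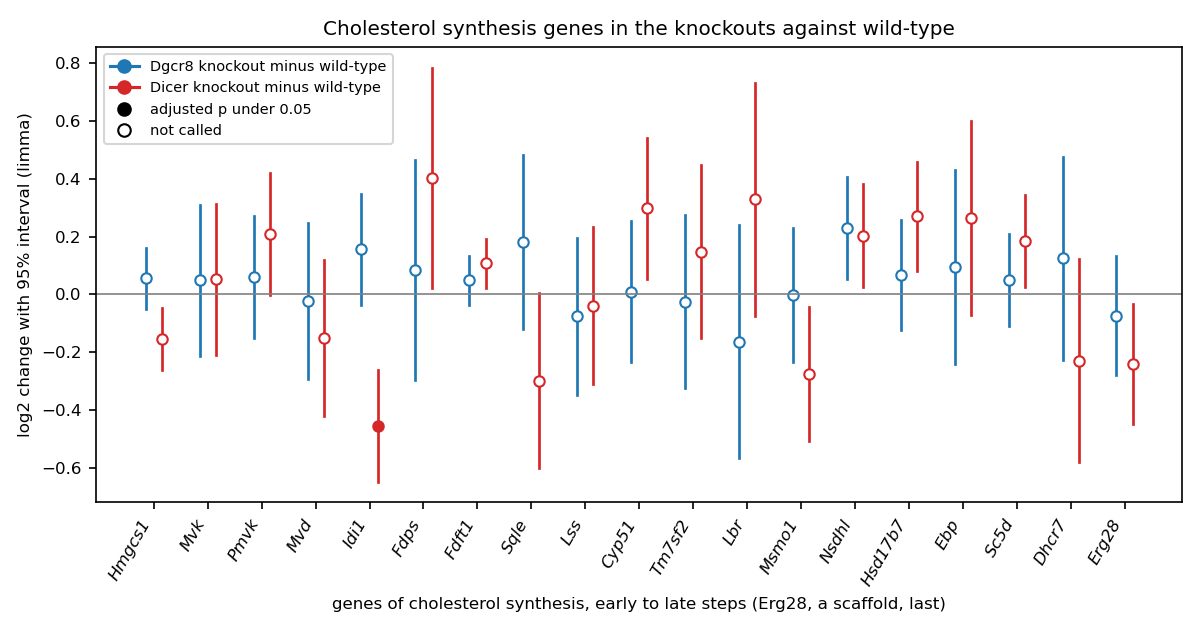
Log2 change against wild-type (vertical axis) with its 95% interval for the 19 tested genes of cholesterol synthesis, in pathway order from Hmgcs1 to Dhcr7 with the scaffold gene Erg28 last; blue is Dgcr8 knockout, red Dicer knockout, and filled points have a limma adjusted p under 0.05. Idi1 in Dicer knockout, at -0.45, carries the sole filled point.

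Farnesyl diphosphate also feeds the isoprenoid branch, where 3 of 9 tested genes passed in Dicer knockout, 2 of them higher and 1 lower, against 11.3% of all tested genes (4.87% higher and 6.47% lower). Ggps1, which makes geranylgeranyl diphosphate for protein prenylation, read 7.01, 7.49 and 7.23 (log2 signal) in wild-type, 7.43, 7.41 and 7.51 in Dgcr8 knockout and 8.25, 8.25 and 8.56 in Dicer knockout. Its Dicer knockout arrays stood above all others, a 2.17-fold rise against wild-type (log2 change 1.11 ± 0.13, SE; limma adjusted p 0.000562). Pdss2, a subunit of the enzyme that builds the coenzyme Q side chain, rose by 0.59 ± 0.09 (log2, SE; limma adjusted p 0.00304). Srd5a3, a reductase needed to make dolichol, had a log2 change of -0.36 ± 0.07 (SE; limma adjusted p 0.00710). These calls held under all 19 alternatives and were also made against Dgcr8 knockout, with log2 changes of 0.91, 0.52 and -0.38.

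Among regulators of sterol synthesis, 3 of 12 tested were called lower in Dicer knockout and 0 higher, with a median log2 change of -0.11. Over all tested genes 6.47% were called lower and 4.87% higher, and the median was -0.03. Mbtps1, the site 1 protease of SREBP processing, read 8.20, 8.40 and 8.33 (log2 signal) in wild-type, 8.35, 8.41 and 8.34 in Dgcr8 knockout and 7.96, 7.86 and 7.73 in Dicer knockout. It was lower in each Dicer knockout array than in the other 6, with a log2 change of -0.46 ± 0.09 (SE; limma adjusted p 0.00787) against wild-type. Rnf145 and Rnf139, ubiquitin ligases of the endoplasmic reticulum, had log2 changes of -0.72 (limma adjusted p 0.0109, and 0.0506 without wild-type replicate 3) and -0.53 (0.0310, lost in 6 of 19 alternatives). Srebf2 itself was at -0.09 (95% interval -0.28 to 0.10, with 1 value shared exactly by 3 arrays), Scap at -0.06 (-0.17 to 0.05) and Insig1, which retains Scap in the endoplasmic reticulum, at 0.10 (0.002 to 0.19); none passed, with adjusted p of 0.636, 0.585 and 0.201.

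Of 15 tested genes for uptake, transport and efflux, 1 was called higher and 2 lower, where 4.87% and 6.47% of all tested genes were. The median log2 change was -0.04, against -0.03 over all genes. Vldlr, a lipoprotein receptor, read 5.97, 5.97 and 5.67 (log2 signal) in wild-type, 5.78, 5.37 and 5.34 in Dgcr8 knockout and 7.24, 6.58 and 6.64 in Dicer knockout. It rose 1.93-fold against wild-type (log2 change 0.95 ± 0.19, SE; limma adjusted p 0.00875) and 2.50-fold against Dgcr8 knockout (0.00134), with no overlap in either case. Scarb1, the receptor for high-density lipoprotein, read 8.35, 8.37 and 8.59 in wild-type, 8.50, 8.65 and 8.38 in Dgcr8 knockout and 8.02, 7.68 and 7.71 in Dicer knockout. All Dicer knockout values of Scarb1 were below the rest, with a log2 change of -0.64 ± 0.12 (SE; limma adjusted p 0.00699). Abcg1, a sterol exporter, had a log2 change of -0.53 ± 0.12 (SE; limma adjusted p 0.0169), lost without wild-type replicate 2 (0.0577), wild-type replicate 3 (0.0646) or Dicer knockout replicate 1 (0.0517) and with only the 2 groups in the fit (0.0508).

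Of 34 tested genes of lipid droplets and triglyceride storage, Plin2, Plin3 and Fitm2 were called higher in Dicer knockout against wild-type and 0 lower, where 4.87% and 6.47% of all tested genes were, and the median log2 change was 0.01. At an unadjusted p under 0.05 stood 8 of the 34, against 23.7% of all. Fitm2, a protein of the endoplasmic reticulum needed for droplets to form, had a log2 signal of 6.76 ± 0.23 in wild-type, 6.85 ± 0.09 in Dgcr8 knockout and 7.43 ± 0.37 in Dicer knockout (SD, n = 3). The Dicer knockout arrays did not overlap the other groups, though replicate 2 came close. The log2 change of Fitm2, 0.67 ± 0.18 (SE; limma adjusted p 0.0398), lost its call in 10 of 19 alternatives and was not called against Dgcr8 knockout (0.0599). In that last comparison 4 genes picked after their values were seen also passed: Pnpla2, the lipase that starts triglyceride breakdown, at 0.35 (adjusted p 0.0279), Lipe, the hormone-sensitive lipase, at -0.35 (0.0273), Lpin1, a phosphatidate phosphatase, at -0.38 (0.0362), and Nceh1, a cholesterol ester hydrolase of the uptake list, at -0.42 (0.0198). Their calls were lost in 7, 6, 8 and 5 of 19 alternatives. Against Dgcr8 knockout 3 of the 34 droplet and storage genes were called higher and 2 lower, which is 14.7%. Of the 15 tested genes of the uptake list, 1 was called higher and 3 lower, which is 26.7%. Over all tested genes 13.4% were called there, 5.48% higher and 7.92% lower.

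**Figure D4:**
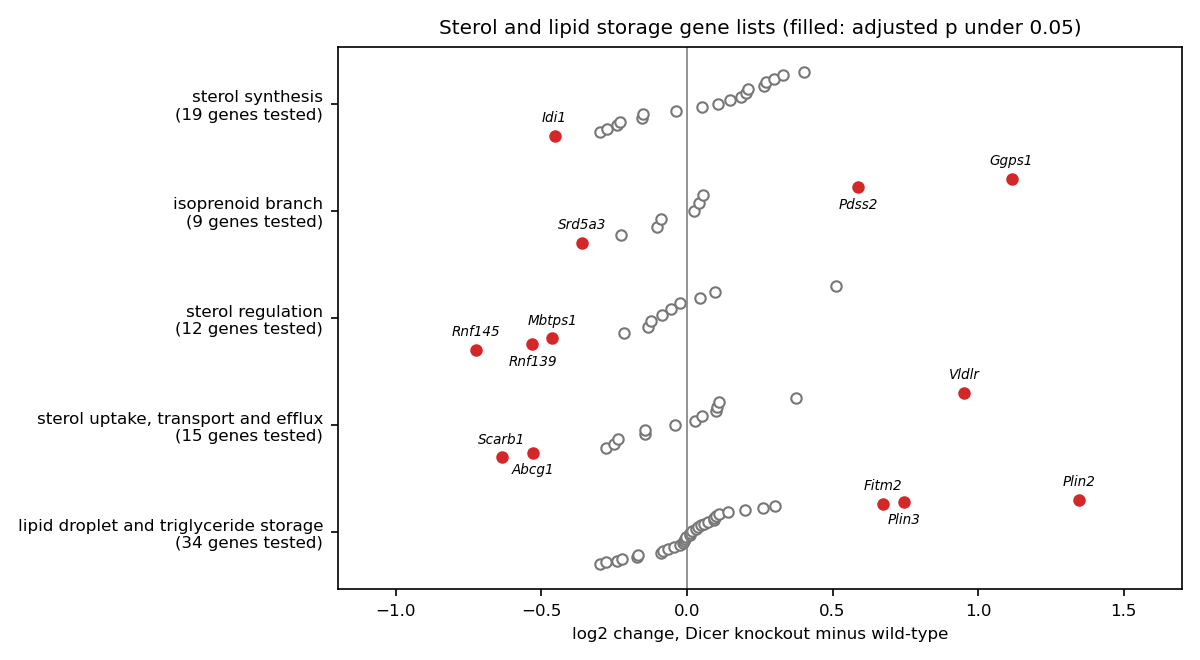
Log2 change in Dicer knockout against wild-type (horizontal axis) for each tested gene of 5 lists; every point is 1 gene, spread vertically by rank within its list, and red points have a limma adjusted p under 0.05. Plin2 (1.34) and Ggps1 (1.11) lie farthest to the right and Rnf145 (-0.72) farthest to the left. The open points are genes that did not pass.

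In oocytes without Dgcr8 none of these lists held a called gene. Of the 137 genes in them and in 2 lists for fatty acids, limma called 0, where 0.0231% of all tested genes were called. At an unadjusted p under 0.05 stood 4 of the 137, where 2.64% of all tested genes did. Of the same 137 genes, 19 (13.9%) were called in Dicer knockout against wild-type, where 11.3% of all tested genes were, and 51 stood at an unadjusted p under 0.05, where 23.7% of all did.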

How the data were processed

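The deposited log2 signals, 1 per probe set and array, were made with GCRMA, per the submitters' processing notes (of unstated version), which corrects the background, normalizes between arrays and summarises probes. Per the labels' protocols, total RNA came from a PicoPure kit; the label was biotin. No further scaling was applied. Each gene was taken from its single-symbol probe set of highest mean and tested if at least 4 (log2) in at least 3 of 9 arrays. A two-sided limma fit (3.58.1, under R 4.3.3, with statmod 1.5.0; lmFit, then eBayes with a trend and robust) gave every comparison and was tested on simulated data. P-values set each difference against the spread between labelled biological replicates within genotypes, pooled over the 9 arrays and moderated across genes by eBayes. Promoters and spans came from RefSeq tables, GRCm38.p6; the sources used here do not name the build behind the array annotation.

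The 8 genes and all lists were chosen with earlier results of these data known. Genes named besides them are up to 4 of each list with the smallest adjusted p among those called in Dicer knockout against wild-type, up to 2 called and 3 defining genes of each marker list, the 3 genes most like Plin2 and Idi1, and Srebf2, Insig1 and Scap. Idi2, Fdps, Hsd17b7, Msmo1, Plin1, Plin4, Plin5, Ptgs2, Lyz2 and others below the signal floor or called only between the knockouts were named after their values were seen. Some genes of the naming rule are not reported here. The 19 alternatives changed the floor, scaling, probe set choice, eBayes settings, arrays in the fit, array weights, the replicate block, or left out 1 array.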

Additional observations from a re-analysis of the deposited data

How the results depend on the processing

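No change of any of the 8 genes reversed where it was called. Against wild-type, 3 of the 8 were called in Dicer knockout and 3 to 4 under the alternatives, and in Dgcr8 knockout 0 throughout. Against Dgcr8 knockout 5 were called, 3 to 5 with each array left out in turn and 4 to 5 otherwise. Over all genes, the calls in Dgcr8 knockout numbered 4, with 2 to 4 with an array left out and 2 to 6 under the other settings. The 2 came with only the 2 groups in the fit and the 6 with array weights. Dicer knockout against wild-type gave 1964 calls, from 1238 without wild-type replicate 3 to 2467 after quantile normalization. Against Dgcr8 knockout it gave 2321, from 1515 without Dgcr8 knockout replicate 1 to at most 2879 under the other settings. The replicate block ended only the Sqle call between the knockouts (-0.48, limma adjusted p 0.0668) among the 8 genes, as did array weights (0.0853). Replicate numbers did not pair the arrays: deviations from group means correlated at -0.24 to 0.11 for equal numbers and -0.16 to 0.25 for others. With 3 arrays per group an exact permutation test cannot go below 0.10 for 1 gene.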

Other observations

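Lists for fatty acid metabolism held calls in both directions in Dicer knockout against wild-type, where 4.87% of all tested genes were called higher and 6.47% lower. Of 25 tested genes of fatty acid synthesis, the elongases Elovl1 and Elovl7 were called higher and Hsd17b12, a reductase of the elongation cycle, lower, with a median log2 change of -0.01. Elovl1 read 10.33, 10.32 and 10.41 (log2 signal) in wild-type, 10.45, 10.45 and 10.31 in Dgcr8 knockout and 10.64, 10.86 and 10.72 in Dicer knockout. Its Dicer knockout arrays were the 3 highest, and its log2 change of 0.39 ± 0.07 (SE; limma adjusted p 0.00435) was called under all 19 alternatives. Hsd17b12 had a log2 change of -0.35 (0.0122, and 0.0525 without wild-type replicate 3), and the Elovl7 call (0.34, 0.0357) was lost in 9 of 19 alternatives.

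Of 23 tested genes of fatty acid oxidation, 2 were called higher, Acadvl (0.31), the very long chain acyl-CoA dehydrogenase, and Etfdh (0.52), which passes the electrons on to coenzyme Q. The 1 called lower was Hadh (-0.61), a hydroxyacyl-CoA dehydrogenase. The limma adjusted p of these were 0.0389, 0.0221 and 0.0436, and the calls were lost in 8, 5 and 11 of 19 alternatives. The median log2 change of the list was -0.02, against -0.03 over all genes.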
